A study of Mus musculus with 4 samples.

Results

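The dual-specificity MAP kinase phosphatases are enzymes that remove phosphate from both the threonine and the tyrosine of the activation loop of MAP kinases and so switch ERK, JNK and p38 off. Many of their genes are switched on by the kinases they act on, which makes them feedback inhibitors, and in T cells several are induced when the antigen receptor is engaged. The 10 genes described here were taken by symbol from the 54752 genes of the deposited count files. They are Dusp1, Dusp2, Dusp4 and Dusp5, whose products are nuclear and inducible, Dusp6 and Dusp7, whose products are cytoplasmic and selective for ERK, Dusp10 and Dusp16, which prefer JNK and p38, and the small atypical phosphatases Dusp14 and Dusp22. All 10 had enough counts to be tested.

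The counts came from 4 RNA-seq libraries of mouse CD4+ T cells, 2 of WT mice and 2 of Mek1/2-tKO mice. The Mek1/2-tKO mice carried Cd4-Cre together with the floxed alleles Map2k1 fl/fl and Map2k2 fl/fl, on a C57BL/6 background, so that both kinases directly upstream of ERK were targeted from the thymic stage at which Cd4 is first expressed, in the precursors of CD8 T cells as well as CD4 T cells. The controls were WT littermates, and neither their Cre status, the ages of the mice nor any pooling of animals is given in the sources used here. Naïve cells from the spleens of both genotypes were stimulated through CD3 and CD28 under Tfh-polarizing conditions for 3 days, with IL-6 added and IL-2, IL-4, IFN-γ and TGF-β blocked by antibodies, and the living cells were sorted again for RNA. The library totals were 18858860 and 18807774 counts in WT and 16330802 and 18931090 counts in Mek1/2-tKO. Nothing in the labels says that the 2 libraries of a genotype came from separate mice, so that p values measure the spread between libraries, which may be technical.

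The targeted genes were read first. Map2k1 had 181 and 187 counts scaled to a common library size (CPM) in the WT libraries and 97.9 and 105 CPM in the Mek1/2-tKO libraries. Map2k2 had 154 and 165 CPM in WT and 172 and 182 CPM in Mek1/2-tKO. Given as Mek1/2-tKO against WT with its standard error (SE), the log2 fold change of Map2k1 was -0.86 (SE 0.08, adjusted p = 1.29e-06 in edgeR), and that of Map2k2 was 0.15 (SE 0.08, adjusted p = 0.126). Thus Map2k1 fell and Map2k2 did not pass the test, although a count over the whole gene does not distinguish a transcript that lacks the floxed exons from a complete one.

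The labelled cell type was compared with marker genes before the phosphatases were read, by the call rule given in the following paragraph. Among all tested genes 16.4% were lower and 19.3% higher in Mek1/2-tKO by that rule. Among 12 genes of alpha-beta CD4 T cells, 6 were lower, 1 (Thy1) was higher and 5 were not called in Mek1/2-tKO, and their summed level was 3152 and 3155 CPM in WT and 2782 and 2602 CPM in Mek1/2-tKO. Cd4 itself had 297 and 289 CPM in WT and 18.8 and 25.1 CPM in Mek1/2-tKO. Thy1, the most abundant gene of this list, had 560 and 573 CPM in WT and 1020 and 997 CPM in Mek1/2-tKO. Of 7 receptor complex genes, 3 were lower. Cd3e, Trac and Cd247 fell, with log2 fold changes of -1.06, -0.98 and -0.79, whereas Cd3g (0.24), Cd3d (0.20), Trbc1 (0.16) and Trbc2 (-0.03) were not called. Cd5 fell from 368 and 384 CPM to 131 and 125 CPM, and Cd28 from 121 and 113 CPM to 29.9 and 29.2 CPM. Lck, with a log2 fold change of -0.54, was not called. The Mek1/2-tKO libraries therefore stood apart from their CD4 label, with little Cd4 and less Cd5 and Cd28. Thy1 and several receptor complex transcripts were still abundant in them. All 10 B-lineage genes were higher in Mek1/2-tKO, with a summed level of 1253 and 1236 CPM in WT and 6387 and 6330 CPM in Mek1/2-tKO, and Ighm was the most abundant of them with 695 and 670 CPM against 3064 and 3092 CPM. Both CD8 co-receptor genes were higher (67.4 and 59.2 CPM summed in WT, 238 and 214 CPM in Mek1/2-tKO, Cd8a being the more abundant), as were all 5 gamma-delta T-cell genes, led by Trdc and Tcrg-C2 (6.97 and 4.35 CPM summed against 184 and 165 CPM). All 6 NK-cell genes were higher too, with Nkg7 the most abundant (96.0 and 99.1 CPM summed against 666 and 612 CPM). Of 6 myeloid genes, 4 were tested and higher, with Lyz2 the most abundant in Mek1/2-tKO (4.05 and 4.35 CPM summed against 24.1 and 18.7 CPM), and the macrophage gene Adgre1 had a count of 0 in both WT libraries. These lists moved together with every difference between the genotypes given below, and their part in the phosphatase results was not tested. No library could be left out to remove them, since both Mek1/2-tKO libraries carried them.

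CPM values are counts divided by library sizes that edgeR's TMM method corrected. A gene was called higher or lower in Mek1/2-tKO when its adjusted p (quasi-likelihood test of edgeR, Benjamini-Hochberg over 14330 tested genes) was under 0.05 and its fold change at least 1.5. With 2 libraries a genotype the smallest two-sided p of an exact permutation test is 0.333, and the p values given here come from a fit that shares its variance estimate over genes. In bulk RNA, fewer cells that express a gene and less of its RNA per cell cannot be told apart.

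The stretches of DNA before the starts of 4 of the phosphatase genes are shown because they belong to members that lay on both sides of the comparison. RefSeq promoter windows (GRCm38.p6), cut here to the 250 bases before the start, were found for 9 of the 10 genes, all but Dusp4. The windows of Dusp6 (chr10:99262981-99263230, plus strand), Dusp7 (chr9:106368382-106368631, plus strand) and Dusp2 (chr2:127335909-127336158, plus strand) hold no exon of GENCODE vM21 and are printed whole. The Dusp5 window is covered by exons of that annotation, and only 30 bases of it are printed (chr19:53529058-53529087, plus strand). Capitals mark matches to the motifs given in the following paragraph.
Dusp5: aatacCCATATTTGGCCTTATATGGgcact
Dusp6: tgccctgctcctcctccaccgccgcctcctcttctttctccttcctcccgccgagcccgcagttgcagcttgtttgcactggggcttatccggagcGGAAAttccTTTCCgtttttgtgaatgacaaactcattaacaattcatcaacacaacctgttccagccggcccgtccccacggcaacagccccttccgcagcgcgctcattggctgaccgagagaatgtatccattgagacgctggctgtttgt
Dusp7: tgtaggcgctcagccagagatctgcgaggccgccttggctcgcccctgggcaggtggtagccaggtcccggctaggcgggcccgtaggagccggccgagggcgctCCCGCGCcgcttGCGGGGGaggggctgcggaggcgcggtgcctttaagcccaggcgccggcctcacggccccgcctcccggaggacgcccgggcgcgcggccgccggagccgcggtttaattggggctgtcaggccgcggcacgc
Dusp2: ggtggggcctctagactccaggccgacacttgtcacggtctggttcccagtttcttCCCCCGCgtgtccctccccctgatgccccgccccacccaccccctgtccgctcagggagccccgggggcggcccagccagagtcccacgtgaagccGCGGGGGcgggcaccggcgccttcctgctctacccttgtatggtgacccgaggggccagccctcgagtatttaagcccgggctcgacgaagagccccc

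The windows were searched whole and on both strands for 6 motifs, exon bases included. Besides Dusp5, the windows of Dusp1, Dusp14 and Dusp22 held 47, 100 and 60 exon bases of their own genes. The Dusp10 window held 171 exon bases of another gene, 1700056E22Rik, and lay inside the span of Dusp10 in the deposited files. The bases after the Dusp16 start were not found in its GENCODE vM21 transcripts, though its window (from 134792629) lay next to the deposited gene (to 134792625). The CArG box, which serum response factor binds, was found in 1 of the 9 windows, that of Dusp5, where 2 boxes lie end to end, and in 1.47% of 32851 RefSeq windows of the same length. The letters GCGNGGG, part of the site of the EGR factors, were found in 7 of the 9 windows and in 20.3% of all windows. The 9 windows had a GC content of 56.4 to 77.6%, and the median of all windows was 52.4%. TGACG, the shorter form of the cyclic AMP response element, was found in 3 windows (Dusp1, Dusp5 and Dusp16) and in 17.8% of all. GGAAA, the core of NFAT sites, was found in 3 (Dusp5, Dusp6 and Dusp16) and in 55.6% of all. TGANTCA (AP-1) and ACCGGAA (ETS, which shares 4 letters with GGAAA) were found in 0 of the 9, and in 6.75% and 2.89% of all windows. Matches are places where these letters stand, and binding was not measured.

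Of the 10 phosphatase genes, 3 were lower in Mek1/2-tKO cells and 0 were higher. Among all tested genes 16.4% were lower and 19.3% higher, and 35.8% were called in either direction, so that a count of 3 called members among 10 is near the background. When counts were scaled by library size alone, 5 members were lower, Dusp5 (-0.66) and Dusp16 (-0.64) being added. That scaling also moved all genes, with 2849 lower and 2388 higher, against 2355 lower and 2768 higher with TMM. The 3 genes were Dusp4, which encodes a nuclear phosphatase of ERK, JNK and p38, and Dusp6 and Dusp7, which encode cytoplasmic ERK phosphatases. At the same adjusted p with no fold change threshold, Dusp5 and Dusp16 joined the lower genes and Dusp2 was higher, which made 6 of 10 where 55.0% of all tested genes passed (27.8% higher, 27.2% lower). At a fold change of at least 2, Dusp4 and Dusp6 were left, 2 of 10, where 7.26% of all tested genes were lower and 12.0% higher. The median log2 fold change of the 10 genes was -0.27, and that of all tested genes was 0.02. In 9 of the 10 genes, Dusp10 being the exception, the values of the genotypes did not overlap, and this held for 78.3% of all tested genes.

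**Figure D1:**
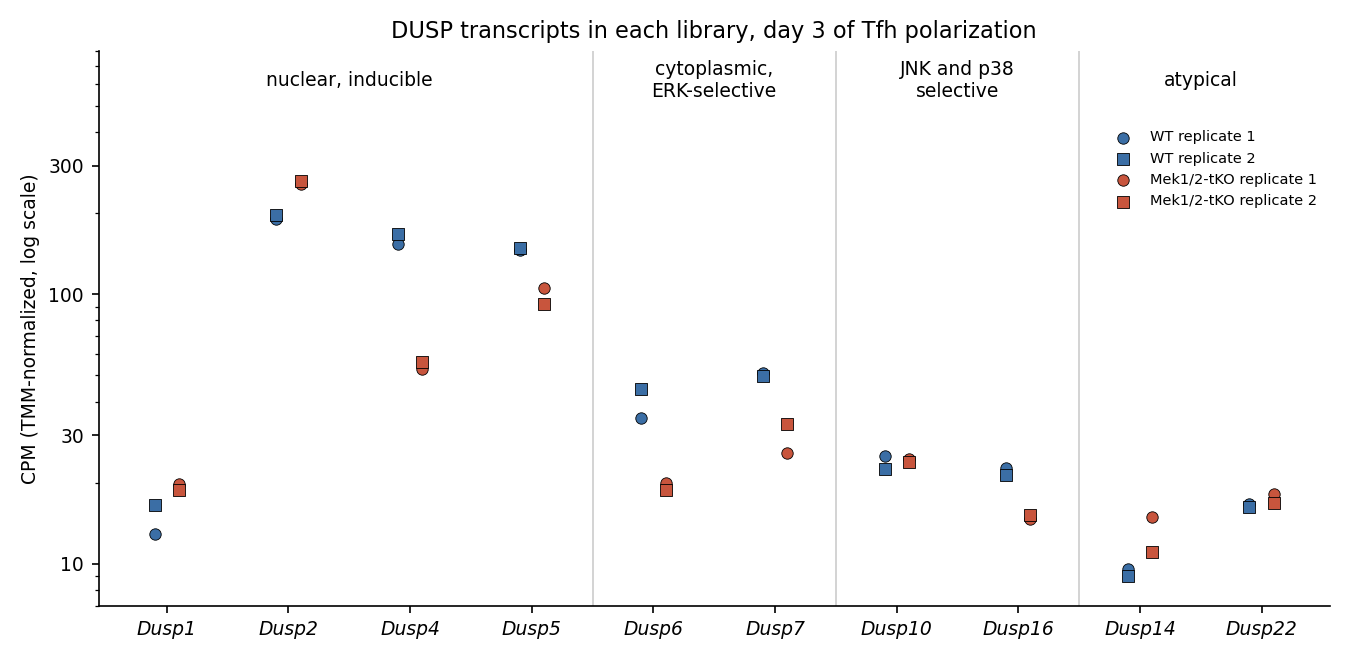
CPM of each of the 10 phosphatase genes (y axis, log scale) in the 2 WT libraries (blue) and the 2 Mek1/2-tKO libraries (red), where circles are replicate 1 and squares are replicate 2. Dusp4, Dusp5, Dusp6, Dusp7 and Dusp16 lie lower in both Mek1/2-tKO libraries, Dusp2 lies higher, and the libraries of Dusp10 overlap.

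Of the 4 nuclear, inducible members, 1 was called. Dusp4 (ENSMUSG00000031530.6, chromosome 8, 34807297 to 34819894) had 154 and 167 CPM in the WT libraries and 52.7 and 56.3 CPM in the Mek1/2-tKO libraries. Both Mek1/2-tKO values were lower than either WT value by far more than the replicates differed. Dusp4 fell by 66.1%, from 161 ± 9.26 to 54.5 ± 2.57 CPM (SD, n = 2 libraries each), a log2 fold change of -1.56 (SE 0.09, adjusted p = 1.03e-08 in edgeR). Omitting any 1 library left it between -1.62 and -1.50.

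Dusp5 (ENSMUSG00000034765.6, chromosome 19, 53529109 to 53542431) encodes a nuclear phosphatase that acts on ERK alone. It had 145 and 149 CPM in WT and 105 and 91.8 CPM in Mek1/2-tKO, without overlap between the genotypes. Its log2 fold change of -0.58 (SE 0.09, 95% interval -0.77 to -0.38, adjusted p = 1.09e-04 in edgeR) passed on p and was just short of a fold change of 1.5. It was called lower without WT replicate 1 (-0.60) or without Mek1/2-tKO replicate 1 (-0.68). The printed 30 bases with the 2 CArG boxes belong to this gene. An antisense gene of GENCODE vM21 that the deposited annotation does not list, AC137853.2, shares 22.1% of its exon bases, so that its count may hold antisense reads if the counting ignored the strand. No other gene overlapped the exons of the other 9 members in either annotation.

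Dusp2 (ENSMUSG00000027368.6, chromosome 2, 127336159 to 127338376) is the nuclear phosphatase known from activated lymphocytes. It had 190 and 196 CPM in WT and 255 and 263 CPM in Mek1/2-tKO, so that it was the member with the most reads in all 4 libraries. The Mek1/2-tKO libraries were higher without overlap. The log2 fold change of 0.42 (SE 0.07, 95% interval 0.26 to 0.58, adjusted p = 2.77e-04 in edgeR) passed on p but not on fold change. Its interval and that of Dusp4 (-1.76 to -1.36) lie on opposite sides of 0.

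Dusp1 (ENSMUSG00000024190.6, chromosome 17, 26505590 to 26508519) is an immediate-early gene whose product acts mainly on p38 and JNK. It had 12.9 and 16.6 CPM in WT and 19.8 and 18.8 CPM in Mek1/2-tKO. The genotypes did not overlap, but the WT libraries differed from each other by more than the nearer Mek1/2-tKO library did from WT replicate 2. Its log2 fold change of 0.39 (SE 0.16, adjusted p = 0.0598 in edgeR) did not pass, and the 95% interval ran from 0.03 to 0.74. It was 0.22 without WT replicate 1 (adjusted p = 0.437 in edgeR) and 0.58 without WT replicate 2 (adjusted p = 0.0236 in edgeR, with a fold change still under 1.5).

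Both cytoplasmic ERK phosphatases among the 10 members were lower. Dusp6 (ENSMUSG00000019960.8, chromosome 10, 99263231 to 99267489), a widely used readout of ERK activity, had 34.8 and 44.4 CPM in WT and 19.9 and 18.8 CPM in Mek1/2-tKO. The WT libraries were further apart than the Mek1/2-tKO libraries, yet even the lower of them was well above both Mek1/2-tKO libraries. Dusp6 fell by 51.1%, from 39.6 ± 6.78 to 19.4 ± 0.737 CPM (SD, n = 2 libraries each), a log2 fold change of -1.03 (SE 0.14, adjusted p = 3.60e-05 in edgeR). Without WT replicate 2, the higher WT library, the log2 fold change was -0.85. Its promoter window, printed earlier, held matches to GGAAA alone among the 6 motifs.

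Dusp7 (ENSMUSG00000053716.9, chromosome 9, 106368632 to 106375724), a close relative of Dusp6, had 51.1 and 49.6 CPM in WT and 25.8 and 33.1 CPM in Mek1/2-tKO. Here the Mek1/2-tKO libraries were the ones further apart, and both were lower than WT. Dusp7 fell by 41.5%, a log2 fold change of -0.77 (SE 0.13, adjusted p = 1.89e-04 in edgeR). Without Mek1/2-tKO replicate 1 the log2 fold change was -0.60, and without Mek1/2-tKO replicate 2 it was -0.97, and it was called in both.

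Neither of the members selective for JNK and p38 was called. Dusp10 (ENSMUSG00000039384.8, chromosome 1, 184013302 to 184075636) had 25.2 and 22.5 CPM in WT and 24.4 and 23.8 CPM in Mek1/2-tKO, so that both Mek1/2-tKO libraries lay between the WT libraries. Its log2 fold change was 0.01 (SE 0.13, adjusted p = 0.94 in edgeR). The 95% interval of -0.27 to 0.30 did not reach a fold change of 1.5 in either direction, but it measures the spread between libraries only. Dusp16 (ENSMUSG00000030203.17, chromosome 6, 134715468 to 134792625) had 22.7 and 21.3 CPM in WT and 14.7 and 15.2 CPM in Mek1/2-tKO. Its replicates were close in both genotypes and the genotypes did not overlap. The log2 fold change of -0.56 (SE 0.15, adjusted p = 0.00524 in edgeR) passed on p and was short of a fold change of 1.5, but it was called lower without WT replicate 2 (-0.61) or without Mek1/2-tKO replicate 2 (-0.59).

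The atypical members did not pass. Dusp14 (ENSMUSG00000018648.15, chromosome 11, 84048041 to 84069261), which damps T-cell receptor signalling, had 9.59 and 9.02 CPM in WT and 15.0 and 11.1 CPM in Mek1/2-tKO. Its Mek1/2-tKO libraries differed widely from each other, and the log2 fold change of 0.48 (SE 0.20, adjusted p = 0.0555 in edgeR) was called only without Mek1/2-tKO replicate 2 (0.68), and was 0.25 without Mek1/2-tKO replicate 1. Dusp22 (ENSMUSG00000069255.13, chromosome 13, 30659999 to 30711231), whose product dephosphorylates the T-cell kinase Lck, had 16.7 and 16.3 CPM in WT and 18.1 and 16.8 CPM in Mek1/2-tKO. The genotypes of Dusp22 almost touched, and its log2 fold change was 0.08 (SE 0.15, 95% interval -0.24 to 0.41, adjusted p = 0.67 in edgeR).

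**Figure D2:**
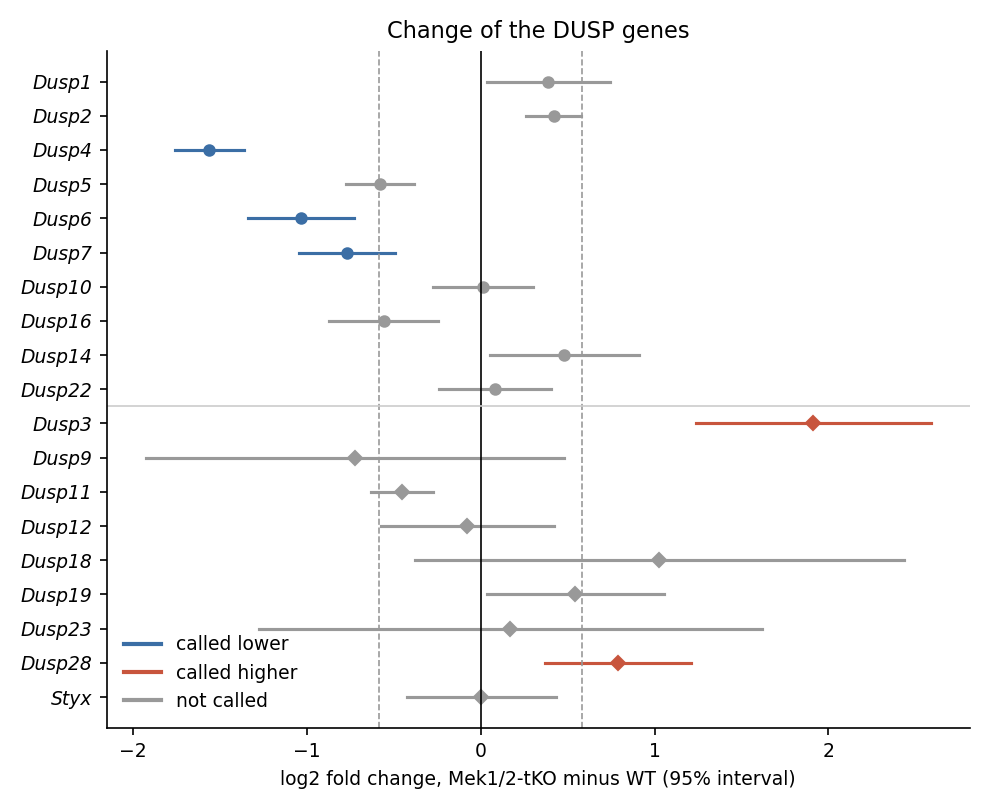
Log2 fold change (Mek1/2-tKO against WT, x axis) with its 95% interval for the 10 members (circles) and the 9 tested genes among the other DUSP genes (diamonds). Blue marks genes called lower, red genes called higher and grey genes not called, and the dashed lines stand at a fold change of 1.5. Dusp4 (-1.56), Dusp6 (-1.03) and Dusp7 (-0.77) are the called members, and Dusp3 (1.91) lies furthest to the right.

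To compare levels between genes, CPM was divided by the exon length in kilobases given in the files. In WT, Dusp2 came first with 95.1 and 98.0 CPM per kilobase. Dusp5 (58.8 and 60.1) and Dusp4 (56.3 and 61.0) followed and overlapped each other. These 3 nuclear members made up most of the family's RNA in WT, as the other 7 lay at or below 15.2 CPM per kilobase. Next came Dusp7 (15.2 and 14.8), Dusp6 (11.1 and 14.2) and Dusp10 (8.28 and 7.41). Dusp1 (4.79 and 6.15) and Dusp14 (4.93 and 4.64) overlapped, and Dusp22 and Dusp16 had the lowest levels. The lengths are those of all listed exons joined, which for Dusp16 (7798 bases) and Dusp22 (5108 bases) cover many isoforms and may understate their level.

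In Mek1/2-tKO the level per length of Dusp2 was 127 and 131 CPM per kilobase, against 42.6 and 37.1 for Dusp5 and 19.2 and 20.5 for Dusp4, so that the first 3 places kept their order but no longer had Dusp4 beside Dusp5. Dusp6 went from the fifth place to the eighth by group means, with 6.35 and 6.01 CPM per kilobase, but there it lay within the range of Dusp14. Dusp10 (8.02 and 7.82) lay within the range of Dusp7 (7.69 and 9.86), and Dusp1 (7.35 and 6.98) within that of Dusp14 (7.70 and 5.69). The sum over the 10 genes was 261 and 272 CPM per kilobase in WT and 232 and 230 in Mek1/2-tKO.

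As a share of that sum, which does not depend on how the libraries are scaled, Dusp2 held 36.5 and 36.0% in WT and 55.0 and 56.9% in Mek1/2-tKO. Dusp4 held 21.6 and 22.4% in WT and 8.29 and 8.92% in Mek1/2-tKO. Dusp5 held 22.6 and 22.1% against 18.4 and 16.1%. Dusp2 thus held less than Dusp4 and Dusp5 together in WT and more in Mek1/2-tKO, and all 3 shares differed between genotypes by more than between replicates. The ratio of Dusp4 to Dusp2 per length was 0.592 and 0.623 in WT and 0.151 and 0.157 in Mek1/2-tKO. The ratio of Dusp4 to Dusp5 was 0.957 and 1.02 in WT and 0.451 and 0.554 in Mek1/2-tKO. The ratio of Dusp6 to Dusp5 was 0.189 and 0.236 in WT and 0.149 and 0.162 in Mek1/2-tKO, where the genotypes did not overlap but lay close together.

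**Figure D3:**
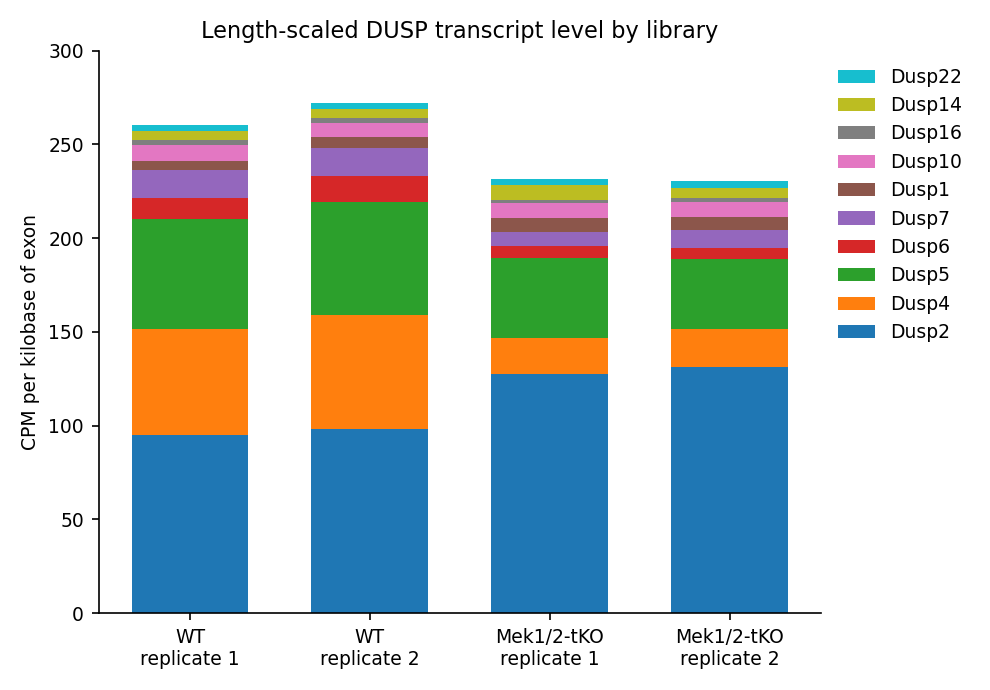
Stacked bars of the level of the 10 genes in each library, in CPM per kilobase of exon (y axis, from 0). The Dusp2 segment is taller in the Mek1/2-tKO libraries (127 and 131) than in WT (95.1 and 98.0), and the Dusp4 segment shrinks from 56.3 and 61.0 to 19.2 and 20.5.

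The 17 other genes listed of the dual-specificity class and its inactive STYX relatives were mostly low. Dusp13, Dusp21, Dusp26 and Dupd1 had a count of 0 in all 4 libraries, which allows up to 0.194 CPM in the shallowest. Of the 17, 9 were tested, with 2 higher and 0 lower, and their median log2 fold change was 0.17. As 19.3% of all tested genes were higher and 16.4% lower, 2 higher genes among 9 are near the background. Dusp3, which encodes a small phosphatase of ERK and JNK, had 1.49 and 2.59 CPM in WT and 8.00 and 7.39 CPM in Mek1/2-tKO. The log2 fold change of Dusp3 was 1.91 (SE 0.31, adjusted p = 1.67e-04 in edgeR), at a low level. Dusp28 had 7.13 and 6.74 CPM in WT and 11.9 and 12.1 CPM in Mek1/2-tKO, with a log2 fold change of 0.79 (SE 0.19). Both rose without overlap, opposite to Dusp4, Dusp6 and Dusp7. Dusp11, named after its values were seen as the gene with the most reads in this list, had 149 and 141 CPM in WT and 106 in both Mek1/2-tKO libraries. It was lower without overlap, and its log2 fold change of -0.45 (SE 0.08, adjusted p = 3.84e-04 in edgeR) passed on p but not on fold change.

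The genes around the phosphatases were read from lists that follow the pathway. Of 10 MAP kinase genes, the substrates, 8 were tested, of which 2 were lower and 1 higher, with a median log2 fold change of -0.21. Among all tested genes 16.4% were lower and 19.3% higher, so that these counts are near the background. Mapk14, the main p38 gene, fell from 94.2 and 92.0 CPM to 51.0 and 55.4 CPM (log2 fold change -0.81, SE 0.10). Mapk8, a JNK gene, fell from 35.4 and 36.0 CPM to 24.3 and 18.7 CPM (log2 fold change -0.74, SE 0.14), and it missed the fold change threshold without Mek1/2-tKO replicate 2 (-0.56). The higher one was Mapk12, another p38 gene, named after its values were seen, with 3.95 and 3.16 CPM in WT and 5.61 and 6.01 CPM in Mek1/2-tKO. Its log2 fold change of 0.71 had an adjusted p of 0.0432 in edgeR, and it was not called in DESeq2, with library size scaling, with no filter on low counts, with a replicate block (adjusted p = 0.0601 in edgeR) or when any library was left out.

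Of the 7 MAP kinase kinase genes, 2 were lower and 0 higher (median log2 fold change -0.29), where 16.4% of all tested genes were lower and 19.3% higher. Besides the targeted Map2k1, the lower gene was Map2k6, an activator of p38. It fell from 7.13 and 7.82 CPM to 3.03 and 1.60 CPM (log2 fold change -1.71, SE 0.32). Among 10 other phosphatase genes that act on MAP kinases, 9 were tested, 2 were lower and 0 higher (median -0.22). Beside the 16.4% of all tested genes that were lower, 2 among 9 is near the background. Ptpn5, which encodes a tyrosine phosphatase of ERK and p38, fell from 59.8 and 61.5 CPM to 11.3 and 8.41 CPM, a log2 fold change of -2.63 (SE 0.14, adjusted p = 5.78e-09 in edgeR). This was a larger change than that of any DUSP gene tested. Ppp2r1b, a scaffold subunit of protein phosphatase 2A, had a log2 fold change of -0.79 (SE 0.09).

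Of 19 genes that ERK induces in many cells, 9 were lower and 3 higher, with a median log2 fold change of -0.71. Thus 12 of 19 were called, where 35.8% of all tested genes were. Spry1 and Spred2, feedback inhibitors that act upstream in the same cascade, both fell, with log2 fold changes of -2.19 for Spry1 (SE 0.15) and -1.62 for Spred2 (SE 0.16). Spry1 had 32.1 and 32.0 CPM in WT and 6.52 and 7.45 CPM in Mek1/2-tKO. Fosl2, an AP-1 subunit, had a log2 fold change of -1.92 (SE 0.12). Against this direction Ier3, an early response gene, rose from 13.3 and 9.95 CPM to 33.3 and 25.4 CPM (log2 fold change 1.33, SE 0.18). The other two higher genes, named after their values were seen, were Spry2 (log2 fold change 2.38, SE 0.23), a Sprouty gene like Spry1, and Fosl1 (0.66, SE 0.21), and Fosl1 fell short of the call with library size scaling and without either WT library. Sprouty genes, like DUSP genes, were thus found on both sides of the comparison.

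**Figure D4:**
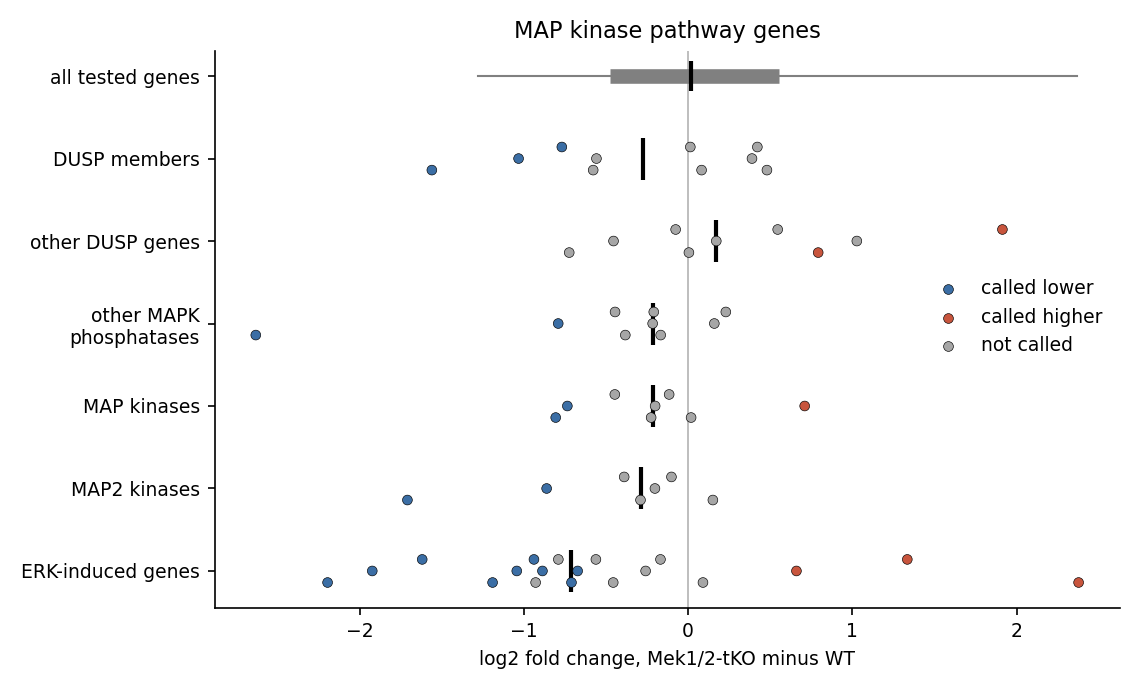
Log2 fold change (Mek1/2-tKO against WT, x axis) of the tested genes of each list, where each dot is a gene, blue is called lower, red called higher and grey not called, and the black tick is the median. For all tested genes the thick bar spans the 25th to the 75th percentile and the thin line the 5th to the 95th. The medians of the ERK-induced genes (-0.71) and of the DUSP members (-0.27) lie to the left of the median of all tested genes (0.02).

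The genes whose 4 library values were most like those of Dusp6, among 9604 tested genes whose log2 CPM averaged 3 or more, were Qsox2, Sos1 and Zfp426. Likeness was the Euclidean distance between centred log2 CPM values over the 4 libraries, which was 0.06 for Qsox2 and 0.08 for both others. Sos1, which loads RAS with GTP at the head of the ERK cascade, had 14.3 and 18.4 CPM in WT and 8.26 and 7.29 CPM in Mek1/2-tKO, and like Dusp6 it was higher in WT replicate 2 than in WT replicate 1. With 4 libraries and many called genes such likeness is a description only.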

How the data were processed

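The authors trimmed the paired reads of a stranded mRNA kit with Trimmomatic 0.36, mapped them to GRCm38 with software that the methods write as STRA, and counted uniquely mapped reads on each gene with featureCounts (Subread 1.5.1). The deposited values are raw counts per gene. Which annotation was used, and whether counting used the strand, is not given in the sources used here. Libraries were grouped by the genotype in their titles.

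Symbols were matched to 54723 of 54752 identifiers. The quasi-likelihood test of edgeR 4.0.16 (R 4.3.3) was run on the counts after filterByExpr and TMM scaling, with a robust prior, and standard errors were taken as the log2 fold change divided by the square root of F. The common dispersion was 0.00842. Replicates differed by more than sampling noise (chi-square per gene 4.19 in WT and 10.9 in Mek1/2-tKO). Limits beside a count of 0 are 3 counts of the library and cover counting error only. The fit was also run on simulated counts, and the outcome is not given here.

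The members, gene lists and tests were chosen with earlier results of these data known. The text names all members, the targeted genes, called genes of the other DUSP and MAP kinase kinase lists, up to 3 called genes per direction of the other pathway lists whose log2 CPM averaged 3 or more, the leading cell type markers and the 3 genes most like Dusp6. The alternatives were DESeq2 1.42.0, other scalings, filters and thresholds, a replicate block and leaving out each library. Python 3.11.15 read promoter motifs and exon overlap. Protein sequences were not analysed here.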

Additional observations from a re-analysis of the deposited data

How the results depend on the processing

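Dusp4, Dusp6 and Dusp7 were called lower under all 6 alternatives to the test, scaling, filter and block and with each of the 4 libraries left out. Library size scaling called 5 members lower, adding Dusp5 (-0.66) and Dusp16 (-0.64). With no filter on low counts Dusp5 was also called lower (-0.59). With no fold change threshold, 5 members were lower and 1 (Dusp2) was higher, and 3903 genes in all were lower. At a fold change of at least 2, 1725 genes were higher and 1040 lower. When any 1 library was omitted, 0 to 1 members were higher, Dusp14 being the one, 4 were lower each time, and 2338 to 2791 genes in all were higher and 2119 to 2627 lower. The member added was Dusp5 without WT replicate 1 (-0.60) or Mek1/2-tKO replicate 1 (-0.68), and Dusp16 without WT replicate 2 (-0.61) or Mek1/2-tKO replicate 2 (-0.59). The sign of Dusp10 turned with library size scaling (-0.072), without WT replicate 2 (-0.065) and without Mek1/2-tKO replicate 1 (-0.0042), its values with 1 library omitted running from -0.065 to 0.092, and that of Dusp22 with library size scaling (-0.0039), all close to 0. The cause was not tested. DESeq2 called 2556 genes higher and 2186 lower. With library size scaling 2388 genes were higher and 2849 lower, so that lower genes were then the majority. The replicate numbers are shared by the genotypes, and the deviations of same-numbered libraries correlated at -0.0262. That value shows no common shift, but it cannot tell whether same-numbered libraries were prepared together. The sources used here do not say so either. With a replicate block 2652 genes were higher, 2300 lower and the count of lower members stayed at 3. Mapk12 was then no longer called (adjusted p = 0.0601 in edgeR). Of the myeloid genes, 3 rather than 4 were called higher in DESeq2, with library size scaling or with a replicate block. The myeloid count was 2 at an adjusted p under 0.01 or with at least 10 counts in every library. Genes with few counts, such as Dusp3, and 2 libraries per genotype limit the precision.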
